A study of Mus musculus with 8 samples.

Results

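The genes described here are 34 genes of the oligodendrocyte lineage and of myelin, chosen by symbol and found in the expression table by their Ensembl identifiers; all 34 were found among the 22337 genes of the table. They were sorted into 4 precursor genes, 3 transcription factor genes used along the whole lineage, 7 genes of committed and newly formed oligodendrocytes (with the regulators of that step) and 20 genes of myelinating oligodendrocytes. The libraries came from male C57BL/6 mice, 4 from animals that received saline and 4 from animals that received morphine, the opioid drug, and the tissue was the nucleus accumbens in the ventral striatum. The series title calls the exposure chronic. Dose, schedule and age are not stated in the labels, nor whether each library was 1 animal, so every p-value here reflects variation among libraries that may be technical. Each value is an FPKM, a fragment number divided by transcript length and by the mapped fragments of its library, which makes levels of different genes comparable per length.

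Oligodendrocytes wrap axons in myelin, a stack of membrane rich in lipid and in a few abundant proteins. They arise throughout life from precursor cells that carry the PDGF receptor alpha and the NG2 proteoglycan, pass through a committed and newly formed stage, and then switch on the genes of compact myelin. In the striatum myelin lies mainly in the fibre bundles that cross the tissue. In bulk tissue, fewer cells of a type and less RNA per cell cannot be told apart.

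The libraries differed in more than this lineage. Genes of striatal neurons, the defining cells of this region (18 listed, all 18 tested), had a summed level of 1155 to 1401 FPKM in saline replicates 1, 2 and 4, of 5467 FPKM in saline replicate 3 and of 353 to 494 FPKM with morphine; 11 of them fell and none rose. Over all tested genes 1.48% fell and 1.04% rose. For cortical neuron genes the sum was 272 to 297 FPKM in those 3 saline libraries and 79.4 FPKM in saline replicate 3. With morphine it was 331 to 385 FPKM. Mitochondrially encoded genes took between 9.09 and 12.6% of all FPKM in saline and between 6.09 and 7.94% in morphine. Because of this, the changes of the 34 genes, the stage medians and the changes of 7 other genes named by rule were also computed without saline replicate 3 and without each other library in turn. The other lists and the marker lists were computed over all 8 libraries only. The tissue make-up that moves with the groups is given beside the results it touches. The part of these shifts in the results on the oligodendrocyte lineage was not tested.

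Of the 34 genes 1 fell with morphine, Bmp4, none rose and 33 did not pass (limma, Benjamini-Hochberg adjusted p under 0.05 over 12536 genes). Over all genes tested 2.52% passed in either direction, 1.48% fell and 1.04% rose, so that the count of 1 in 34 is near the background. The changes nevertheless leaned one way. The difference morphine minus saline on the log2(FPKM + 1) scale was negative for 31 of the 34 genes, where 48% of all tested genes had a negative difference, and its median was −0.28, against 0.012 over all tested genes. An unadjusted p under 0.05 was reached by 10 genes, all lower, where 20.1% of all tested genes reached it and 10.1% with a lower level. In 7 genes all 4 morphine values lay below all 4 saline values (Bmp4, Myrf, Mbp, Fa2h, Aspa, Gjc3 and Ugt8a); groups that did not overlap were seen in 12.7% of all tested genes, and in 6.1% with morphine lower. These genes share cells, so their signs are not independent of each other.

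**Figure D1:**
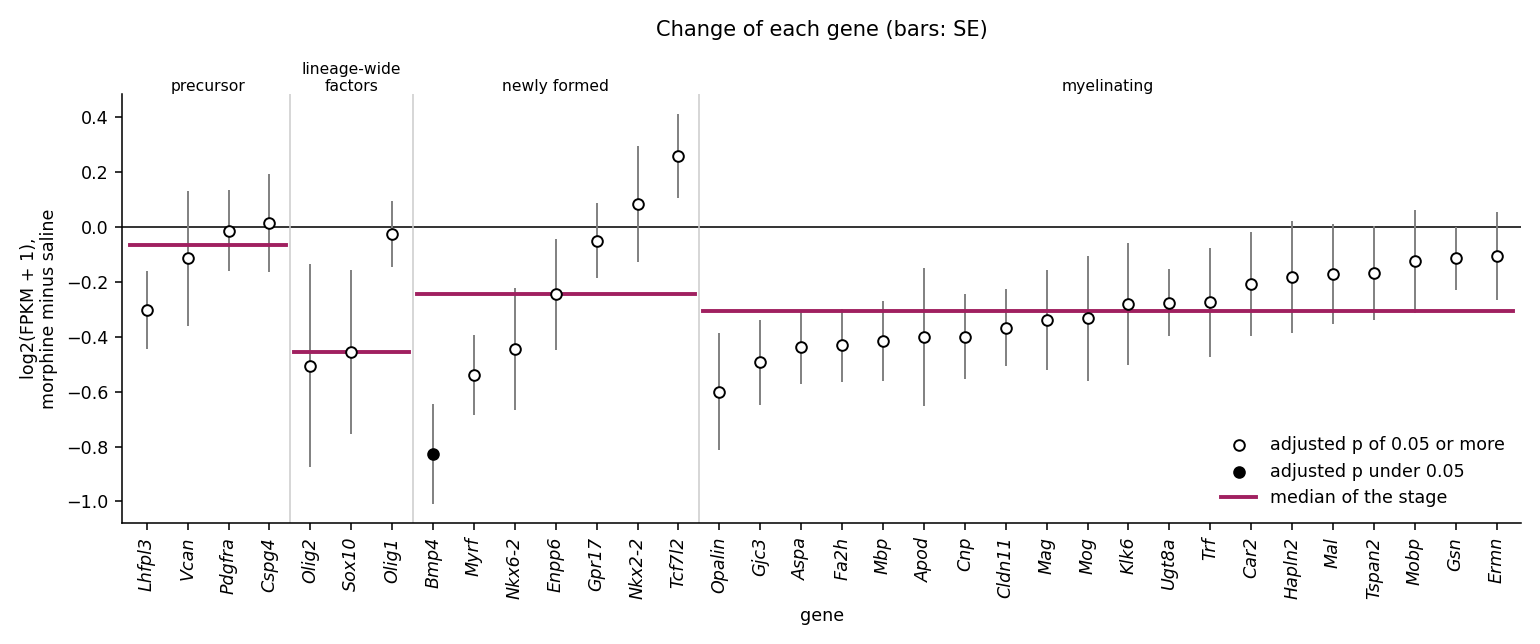
Change of each of the 34 genes, morphine minus saline, on the log2(FPKM + 1) scale (points, with bars for the SE); the coloured line is the median of each stage. Bmp4 is the filled point, at −0.83, and all 20 myelinating genes lie below 0, while the 4 precursor genes lie between −0.30 and 0.013.

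The levels of the stages differed far more than the groups did. Mbp, which encodes myelin basic protein, the cytoplasmic glue of compact myelin, had a mean of 2024 FPKM in saline and ranked 16 among the 22337 genes by that mean. It made up between 47.5 and 56.0% of the summed FPKM of the 34 genes in every library. Mobp, the gene of another abundant myelin protein, followed at 513 FPKM (rank 98) and Cnp, the gene of a myelin-associated phosphodiesterase that keeps cytoplasmic channels in the sheath, at 186 FPKM (rank 416). The lowest of the 20 myelinating genes was Klk6, a secreted protease gene, at 3.86 FPKM. Precursor genes had saline means between 3.01 (Cspg4) and 11.1 FPKM (Lhfpl3), and genes of the newly formed stage between 1.75 (Nkx2-2) and 13.3 FPKM (Gpr17). The 34 genes together took 0.694 to 0.803% of all FPKM in saline and 0.454 to 0.712% with morphine.

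**Figure D2:**
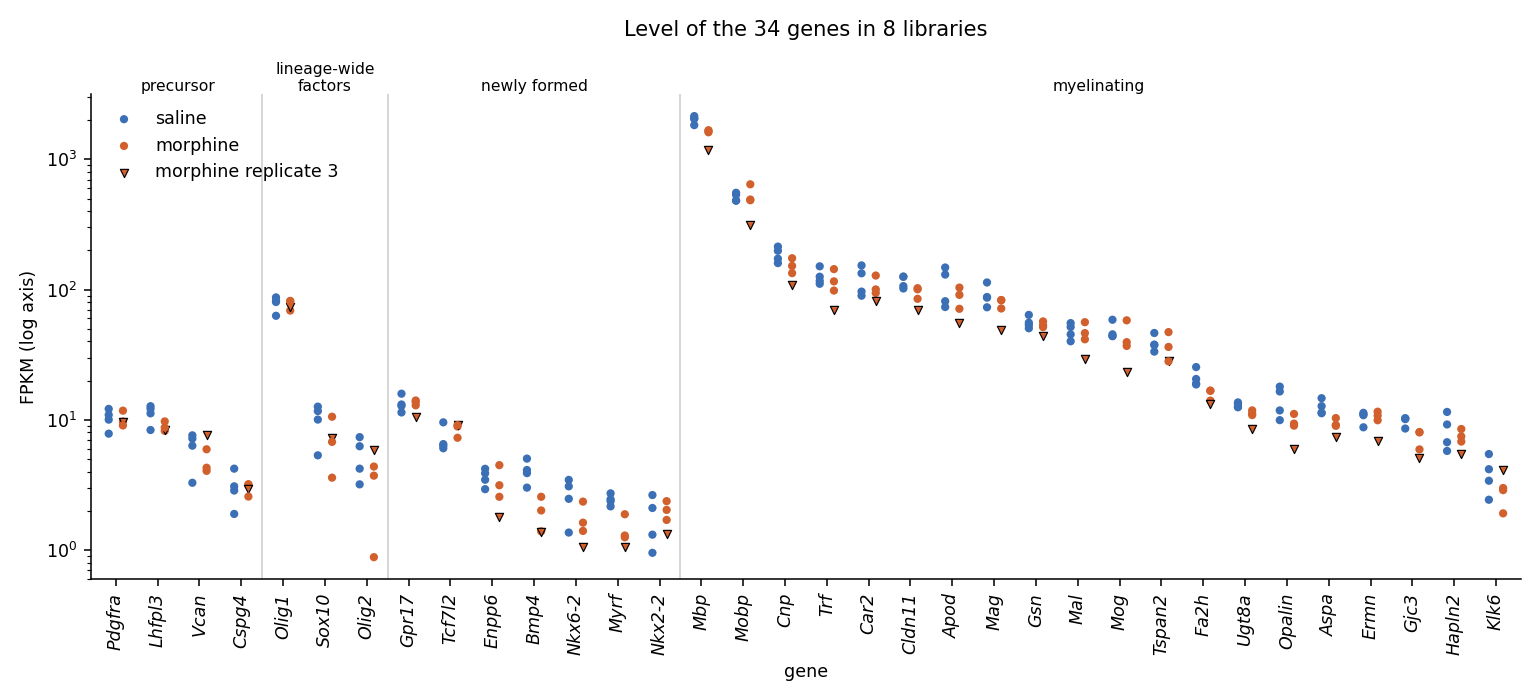
FPKM (log axis) of the 34 genes in the 4 saline and 4 morphine libraries, 1 point per library, ordered by level within each stage; the outlined triangle is morphine replicate 3. Mbp lies between 1181 and 2150.4 FPKM, and the triangle is the lowest point in 18 of the 20 myelinating genes and in none of the 4 precursor genes.

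Promoters are shown for the gene with the smallest p in each stage for which a sequence was given (26 of the 34 genes matched, from RefSeq on GRCm38.p6). Sox10 and Fa2h had a smaller p than Olig2 and Aspa, which are shown in their place because no sequence was given for Sox10 and Fa2h. Opalin and Cnp were added after their values were seen, because they are myelin genes in which several of the motifs searched occur. Each line runs 5′ to 3′ on the strand of the gene, from 250 bases before to 50 bases after the transcription start. Capitals mark the motifs, searched on both strands: CAGCTG (an E-box, bound by basic helix-loop-helix factors such as Olig2, the same on both strands), ACAAAG (a core of Sox factor sites, CTTTGT on the other strand) and CTGGCAC (the site of Myrf, GTGCCAG on the other strand). No motif contains another.
Lhfpl3 (precursor, chr5:22745804-22746103, plus strand): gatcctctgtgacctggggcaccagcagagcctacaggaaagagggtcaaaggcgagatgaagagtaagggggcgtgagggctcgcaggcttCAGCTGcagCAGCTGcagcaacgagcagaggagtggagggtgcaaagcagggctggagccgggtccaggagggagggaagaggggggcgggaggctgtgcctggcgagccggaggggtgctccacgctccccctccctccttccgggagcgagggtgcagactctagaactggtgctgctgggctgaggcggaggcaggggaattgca
Olig2 (lineage-wide factor, chr16:91225300-91225599, plus strand): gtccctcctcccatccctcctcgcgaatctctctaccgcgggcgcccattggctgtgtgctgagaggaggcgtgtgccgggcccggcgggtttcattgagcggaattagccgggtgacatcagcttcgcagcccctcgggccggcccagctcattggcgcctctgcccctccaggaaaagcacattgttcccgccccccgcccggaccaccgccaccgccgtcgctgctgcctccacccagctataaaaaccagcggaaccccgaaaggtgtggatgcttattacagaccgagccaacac
Bmp4 (newly formed, chr14:46390620-46390919, minus strand): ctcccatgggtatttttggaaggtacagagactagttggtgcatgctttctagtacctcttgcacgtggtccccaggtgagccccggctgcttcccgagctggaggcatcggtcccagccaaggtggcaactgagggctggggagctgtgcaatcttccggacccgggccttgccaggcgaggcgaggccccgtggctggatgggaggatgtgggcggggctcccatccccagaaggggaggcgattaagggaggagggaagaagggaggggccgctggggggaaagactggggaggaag
Aspa (myelinating, chr11:73324588-73324887, minus strand): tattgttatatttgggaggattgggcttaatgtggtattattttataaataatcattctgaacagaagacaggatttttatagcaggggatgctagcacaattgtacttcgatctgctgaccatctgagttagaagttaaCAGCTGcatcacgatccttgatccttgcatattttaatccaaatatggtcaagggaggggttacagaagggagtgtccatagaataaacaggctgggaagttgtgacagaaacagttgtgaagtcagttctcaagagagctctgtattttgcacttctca
Opalin (myelinating, chr19:41077064-41077363, minus strand): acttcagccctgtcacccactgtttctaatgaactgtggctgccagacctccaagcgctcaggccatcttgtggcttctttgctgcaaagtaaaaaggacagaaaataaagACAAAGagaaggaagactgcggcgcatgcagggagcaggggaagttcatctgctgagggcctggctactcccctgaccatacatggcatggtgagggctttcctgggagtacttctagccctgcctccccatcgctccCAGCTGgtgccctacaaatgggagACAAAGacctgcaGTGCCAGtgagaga
Cnp (myelinating, chr11:100574689-100574988, plus strand): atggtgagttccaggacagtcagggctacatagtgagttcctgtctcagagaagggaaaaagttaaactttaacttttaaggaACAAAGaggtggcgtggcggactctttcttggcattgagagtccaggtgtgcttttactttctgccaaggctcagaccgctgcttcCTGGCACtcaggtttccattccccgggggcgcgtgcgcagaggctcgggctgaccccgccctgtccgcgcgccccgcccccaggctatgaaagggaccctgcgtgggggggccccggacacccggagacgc

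The Opalin window holds all 3 motifs, with an E-box from position −1 relative to the transcription start, Sox cores from −139 and 24 and the Myrf site on the other strand from 37. The Cnp window holds a Sox core from −167 and a Myrf site from −81. In the Lhfpl3 window there are 2 E-boxes and in the Aspa window 1, while the Bmp4 and Olig2 windows hold none of the 3 motifs. Of 33 promoters of the lineage genes, 7 hold the E-box, 9 the Sox core and 5 the Myrf site. The same windows hold them in 16.3%, 18.7% and 5.01% of all 32851 promoters. All 5 promoters with the Myrf site belong to the myelinating genes (22 promoters), namely those of Cnp, Hapln2, Mag and Opalin. The windows also differ in base composition, from 39% G and C in Aspa to 66% in Lhfpl3, where the median of all promoters is 52.7%. A match is a match of letters and was not tested as a binding site.

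None of the 4 precursor genes passed, and their median log2 change was −0.065. Pdgfra encodes the receptor for the mitogen PDGF-A and marks precursor cells, but it was also listed among genes shared with vessel or choroid plexus cells. Its level was 10.0, 10.9, 7.82 and 12.1 FPKM in saline replicates 1 to 4 and 9.68, 11.7, 9.66 and 9.04 FPKM in morphine replicates 1 to 4. The groups overlapped fully, with saline replicate 3 the lowest and saline replicate 4 the highest of the 8 (log2 change −0.015 ± 0.15 SE, adjusted p = 0.971). Cspg4, which encodes the NG2 proteoglycan and is also made by pericytes, read 1.89, 2.86, 4.21 and 3.08 FPKM in saline and 3.20, 3.16, 2.94 and 2.57 FPKM in morphine. The saline libraries spread more widely here than the morphine libraries, and both extremes were saline (log2 change 0.013 ± 0.18 SE, adjusted p = 0.979). The sign of this change turned to −0.024 with mitochondrial genes removed and to −0.026 with libraries scaled to one upper quartile.

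Lhfpl3, a tetraspan membrane protein gene used as a precursor marker, had the smallest p of the stage. It measured 12.7, 12.1, 8.34 and 11.2 FPKM in saline and 9.71, 8.22, 8.28 and 8.70 FPKM in morphine. Saline replicate 3 lay among the morphine libraries and the other 3 saline libraries lay above them (log2 change −0.30 ± 0.14 SE, adjusted p = 0.268). A long non-coding RNA gene on the opposite strand, A930003O13Rik, covers 17.6% of the exon bases of Lhfpl3. Without strand marking, reads in that shared stretch cannot be told apart. Vcan, the gene of the matrix proteoglycan versican, which fibroblasts also make, read 3.28, 6.32, 7.17 and 7.59 FPKM in saline and 4.05, 5.93, 7.64 and 4.28 FPKM in morphine. Low and high values occurred in both groups (log2 change −0.12 ± 0.25 SE, adjusted p = 0.837).

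The lineage-wide factors had the most negative stage median, −0.46, over only 3 genes, and none passed. Olig1 and Olig2 are neighbouring basic helix-loop-helix genes on chromosome 16, with 41094 bases between them; Olig2 is needed to specify the lineage and Olig1 for maturation. Olig1 was 80.3, 87.1, 82.2 and 62.9 FPKM in saline and 81.9, 69.0, 73.5 and 81.0 FPKM in morphine, with saline replicate 4 the lowest (log2 change −0.026 ± 0.12 SE, adjusted p = 0.930). Olig2 was 7.35, 6.26, 3.19 and 4.21 FPKM in saline and 0.88, 3.72, 5.84 and 4.37 FPKM in morphine. Morphine replicate 1 was far below the rest, and the other 3 morphine libraries lay within the saline range (log2 change −0.51 ± 0.37 SE, adjusted p = 0.481). Without morphine replicate 1 the change of Olig2 was −0.11. Mean Olig1 was 14.9 times mean Olig2 in saline and 20.6 times in morphine.

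Sox10, the HMG-box factor gene that keeps the lineage's identity and later works with Myrf on myelin genes, read 12.6, 10.0, 11.7 and 5.33 FPKM in saline and 3.59, 10.6, 7.25 and 6.76 FPKM in morphine. Saline replicate 4 lay among the morphine libraries and morphine replicate 2 among the saline libraries (log2 change −0.46 ± 0.30 SE, adjusted p = 0.429). Morphine replicate 1 was again the lowest, as for Olig2. Without it the median of the 3 factor genes was −0.11 in place of −0.46, so that the size of the difference rested on that library.

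Among the 7 genes of the newly formed stage, Bmp4 fell and 6 did not pass, with a median log2 change of −0.25 and a range from −0.83 to 0.26. Bmp4 (ENSMUSG00000021835, chromosome 14, 46383520 to 46390669, minus strand, GRCm38) encodes a secreted ligand of the TGF-beta family; its RNA marks committed precursors and newly formed cells, and the protein restrains oligodendrocyte differentiation. It was 5.03, 4.11, 3.89 and 3.01 FPKM in saline and 1.39, 2.01, 1.38 and 2.56 FPKM in morphine. Every morphine library lay below every saline library, with saline replicate 4 and morphine replicate 4 closest to each other. The means were 4.01 ± 0.830 and 1.84 ± 0.566 FPKM (SD, n = 4 each), 2.19-fold lower with morphine (log2 change −0.83 ± 0.18 SE, limma adjusted p = 0.0461).

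The call of Bmp4 was not stable while its direction was. With any of 7 of the 8 libraries left out in turn it missed the threshold (adjusted p between 0.0597 and 0.139), and it passed only without saline replicate 4 (0.0336); the log2 change stayed between −0.94 and −0.73. Bmp4 is not made by this lineage alone. Genes of mural cells and fibroblasts were lower with morphine too: 12 of 15 listed were tested, all 12 were lower and 3 of them fell. Over all tested genes 48% were lower and 1.48% fell. The list had a sum of 162 to 301 FPKM in saline and 77.0 to 113.8 FPKM in morphine. Library by library the match was partial. Saline replicate 4 was the lowest saline library in both, while morphine replicate 4 had the lowest sum and the highest morphine value of Bmp4. The part of these cells in the change of Bmp4 was not tested. On the opposite strand the gene Gm15217 covers 3.96% of its exon bases.

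Myrf (chromosome 19, 10208272 to 10240748, minus strand) encodes the membrane-bound transcription factor that cuts itself free and starts the myelin programme, and it came next by p. Its values were 2.37, 2.45, 2.72 and 2.16 FPKM in saline and 1.25, 1.88, 1.06 and 1.29 FPKM in morphine. The groups did not overlap, and morphine replicate 2 came closest to the saline libraries. Saline libraries averaged 2.42 ± 0.232 FPKM and morphine libraries 1.37 ± 0.354 FPKM (SD, n = 4 each), and the change did not pass (log2 −0.54 ± 0.14 SE, adjusted p = 0.0768). With each library left out in turn the change stayed between −0.64 and −0.48. Nkx6-2, a homeobox gene of maturing oligodendrocytes, had 3.08, 2.47, 3.45 and 1.36 FPKM in saline and 1.40, 2.35, 1.06 and 1.62 FPKM in morphine. Saline replicate 4 was low and morphine replicate 2 high for their groups (log2 change −0.44 ± 0.22 SE, adjusted p = 0.295). Exons of Inpp5a on the other strand cover 12.9% of those of Nkx6-2.

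Tcf7l2, the Wnt pathway factor gene that is high in newly formed cells and that other brain cells also use, was the only gene of the 34 with a difference of more than 0.1 upward. It was 6.50, 6.04, 6.32 and 9.55 FPKM in saline and 8.88, 7.27, 9.10 and 9.09 FPKM in morphine. The 4 morphine libraries lay above 3 of the saline libraries and below saline replicate 4 (log2 change 0.26 ± 0.15 SE, adjusted p = 0.384). Gpr17, the receptor gene that marks the committed precursor most sharply, was 11.4, 15.9, 12.8 and 13.1 FPKM in saline and 13.7, 14.1, 10.4 and 12.9 FPKM in morphine. The groups overlapped over most of their range (log2 change −0.051 ± 0.14 SE, adjusted p = 0.872). Lims2, on the opposite strand, shares 3.62% of the exon bases of Gpr17. Enpp6, a choline phosphodiesterase gene of cells that begin to myelinate, had a change of −0.25 ± 0.20 and Nkx2-2, the homeobox gene that drives differentiation, of 0.083 ± 0.21 (log2, SE). So Bmp4 and Gpr17, both markers of committed precursors, had changes of −0.83 and −0.051; the difference between the 2 genes was not tested.

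**Figure D3:**
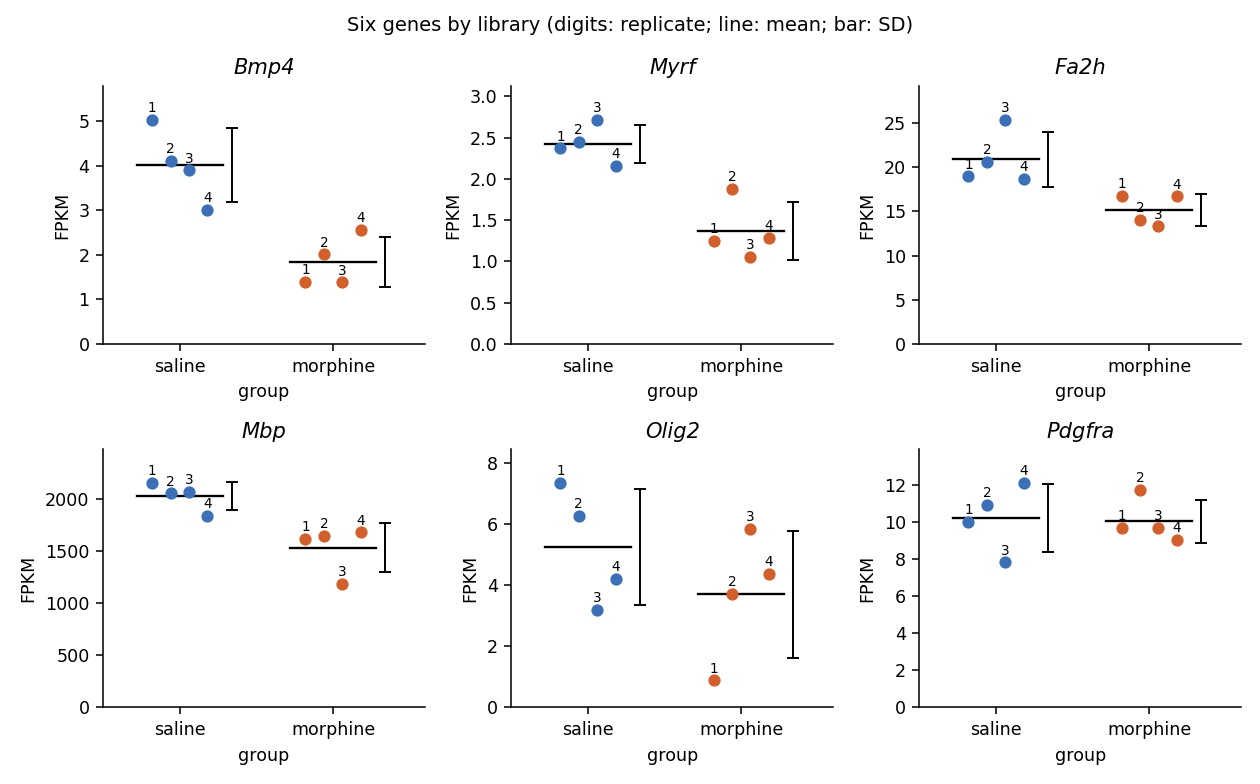
FPKM of Bmp4, Myrf, Fa2h, Mbp, Olig2 and Pdgfra in each library (points, with the replicate number), with the group mean (line) and SD (bar, n = 4). Groups do not overlap for Bmp4, Myrf, Fa2h and Mbp, morphine replicate 1 stands low for Olig2 at 0.88 FPKM, and the Pdgfra groups overlap fully.

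All 20 myelinating genes had a lower mean in morphine on the log2 scale, none passed singly, and their median change was −0.31, with a range from −0.60 (Opalin) to −0.11 (Ermn). All 20 were also lower with mitochondrial genes removed and with libraries scaled to one upper quartile. Both steps moved the median of all tested genes downward, from 0.012 to −0.028 and −0.033. They therefore could not serve as a check on negative signs. The gene with the smallest p was Fa2h, whose enzyme adds the hydroxyl group to the fatty acids of myelin lipids. It was 19.0, 20.6, 25.4 and 18.7 FPKM in saline and 16.7, 14.0, 13.3 and 16.7 FPKM in morphine. No morphine library reached the lowest saline library, although the gap between 16.7 and 18.7 was small (log2 change −0.43 ± 0.13 SE, adjusted p = 0.107). Aspa, the aspartoacylase gene, whose enzyme frees acetate from N-acetylaspartate for lipid synthesis, was 14.6, 11.3, 12.7 and 11.2 FPKM in saline and 9.12, 10.3, 7.41 and 8.98 FPKM in morphine. Here too the groups did not overlap (log2 change −0.44 ± 0.13 SE, adjusted p = 0.107).

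Gjc3, a connexin gene of oligodendrocytes, was 8.56, 10.3, 10.1 and 10.2 FPKM in saline and 7.99, 8.05, 5.07 and 5.92 FPKM in morphine, with saline replicate 1 below the other saline libraries (log2 change −0.49 ± 0.16 SE, adjusted p = 0.114). Mbp was 2150.4, 2049, 2064 and 1832 FPKM in saline and 1615, 1645, 1181 and 1676 FPKM in morphine. The groups did not overlap, and morphine replicate 3 lay far below the other morphine libraries. Saline libraries averaged 2024 ± 135 FPKM and morphine libraries 1529 ± 233 FPKM (SD, n = 4 each), a log2 change of −0.42 ± 0.14 (SE, adjusted p = 0.147). Mog, the gene of the glycoprotein on the outermost layer of the sheath, was 58.6, 45.3, 44.1 and 43.8 FPKM in saline and 39.5, 58.0, 23.5 and 36.9 FPKM in morphine. Morphine replicate 2 lay between the highest saline library and the other 3, and morphine replicate 3 was the lowest of all 8 (log2 change −0.33 ± 0.23 SE, adjusted p = 0.447). The change was −0.11 without morphine replicate 3 and −0.54 without morphine replicate 2.

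The other 15 myelinating genes fall into the sheath's structural proteins, enzymes and secreted products. Opalin, a sialylated membrane glycoprotein gene of mature cells that was singled out after its values were seen, had the most negative change of the stage and wide saline values, from 9.93 to 17.96 FPKM against 6.01 to 11.1 FPKM in morphine (log2 change −0.60 ± 0.21 SE, adjusted p = 0.154). Cnp had a change of −0.40 ± 0.15 and Cldn11, the claudin gene that seals the layers of the sheath, of −0.37 ± 0.14. Mag, the adhesion molecule gene of the layer facing the axon, had −0.34 ± 0.18. Ugt8a, whose enzyme makes galactosylceramide, the main myelin lipid, had −0.28 ± 0.12 (log2, SE) without overlap of the groups. Mobp, Mal (a lipid raft protein gene), Ermn (a cytoskeletal protein gene) and Tspan2 (a tetraspanin gene) had changes between −0.17 and −0.11, as did Gsn, the gene of the actin-severing protein gelsolin, at −0.12. Apod, a lipid carrier gene, had −0.40, Klk6 −0.28, Car2, a carbonic anhydrase gene, −0.21 and Hapln2, a link protein gene of the node of Ranvier, −0.18. Thus Mbp and Mobp, the 2 genes of the set with the highest levels, had changes of −0.42 and −0.13, and the difference between them was not tested. Without morphine replicate 3 the changes of Mobp and Ermn turned to 0.064 and 0.036, and with 1 library left out that of Mal came as near to 0 as −0.0030. Trf, the transferrin gene, had −0.27, and Gm20425 on the same strand shares 63.5% of its exon bases, so reads may be divided between the pair.

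Some of the myelinating genes are also made by vessel, meningeal or choroid plexus cells. The 5 of this kind (Apod, Gsn, Trf, Car2 and Cldn11) had a median change of −0.27, and the other 15 of −0.33. Of 10 genes of the choroid plexus and ependyma 4 were tested and 1 fell, and the list had a sum of 7.76 to 53.6 FPKM in saline and 3.17 to 17.3 FPKM in morphine. Astrocyte genes were lower too: 14 of 14 were tested, 13 had a negative change and 3 fell, and their sum was 2440 to 3229 FPKM in saline and 1697 to 2122 FPKM in morphine. Endothelial genes had a sum of 168 to 200.03 FPKM in saline and 123 to 132 FPKM in morphine. Of these 11 were tested and 3 fell, where over all tested genes 1.48% fell. Of 12 microglial genes none passed, at an unadjusted p under 0.05 either, and their sum was 532 to 751 FPKM in saline and 559 to 614 FPKM in morphine. Whether these shifts and that of the myelin genes have a common source was not tested.

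Set side by side, the precursor genes had the change nearest to 0 and the myelinating genes the same sign throughout. The mean log2(FPKM + 1) of the 4 precursor genes was 2.72, 3.03, 2.94 and 3.11 in saline replicates 1 to 4 and 2.81, 2.93, 2.93 and 2.71 in morphine replicates 1 to 4. That of the 20 myelinating genes was 5.66, 5.54, 5.73 and 5.46 in saline and 5.35, 5.55, 4.95 and 5.32 in morphine. In the myelinating stage 3 morphine libraries lay below all saline libraries, and morphine replicate 2 lay within the saline range. The newly formed stage had the same arrangement, at 2.42, 2.31, 2.37 and 2.23 in saline and 2.02, 2.29, 1.84 and 2.17 in morphine. The 3 lineage-wide factors averaged 4.39, 4.26, 4.04 and 3.68 in saline and 3.16, 3.97, 4.01 and 3.91 in morphine. The difference between the myelinating and the precursor mean within a library ran from 2.35 to 2.95 in saline and from 2.02 to 2.62 in morphine, so the groups overlapped in it.

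**Figure D4:**
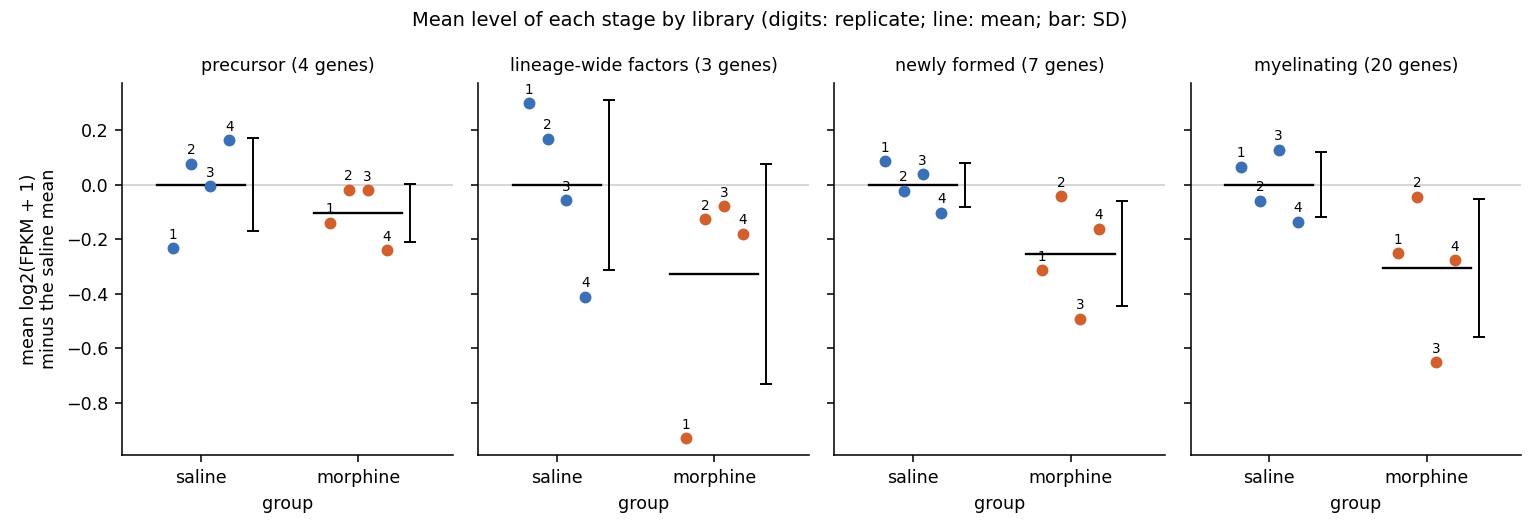
Mean log2(FPKM + 1) of each stage in each library, less the mean of the 4 saline libraries (points, with the replicate number; line, group mean; bar, SD, n = 4). Morphine replicate 3 is the lowest point of the newly formed and the myelinating stage, at 1.84 and 4.95 before the subtraction, and morphine replicate 1 the lowest of the lineage-wide factors, at 3.16, while precursor means overlap.

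Single libraries carried much of the contrast between stages. Morphine replicate 3 held the lowest value of all 8 libraries in 18 of the 20 myelinating genes and 5 of the 7 genes of the newly formed stage, but in none of the 4 precursor genes or the 3 factor genes. Saline replicate 3, the library with the high striatal neuron genes, held the highest value in 8 of the 20 myelinating genes. Saline replicates 1, 2 and 4 held it in 5, 2 and 1, and morphine replicate 2 in 4, Mobp among them. Among the morphine libraries, morphine replicate 3 had the highest microglial sum (614 FPKM, the others 559 to 596). For endothelial genes the measures differed. The sum of morphine replicate 3 (132.27 FPKM) was nearly that of morphine replicate 1 (132.15 FPKM), at the top of the morphine libraries. Its mean log2(FPKM + 1) of these genes, 2.44, was the lowest of all 8 libraries. The sums of morphine replicate 3 for astrocyte genes (1697 FPKM), striatal neuron genes (353 FPKM) and other myelinating genes (1603 FPKM) were the lowest of all 8 libraries. The part of these differences in its low myelin values was not tested. Without it, 18 of the 20 myelinating genes were lower with morphine, with a median of −0.18, beside −0.13 for the precursor genes and −0.087 for the newly formed genes. Without saline replicate 3 the medians were −0.26, −0.078 and −0.32 in that order of stages. Without both replicates 3, an alternative added once the values were known, 14 of the 20 myelinating genes were lower, and the medians of the precursor, newly formed and myelinating genes were −0.15, −0.16 and −0.17.

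**Figure D5:**
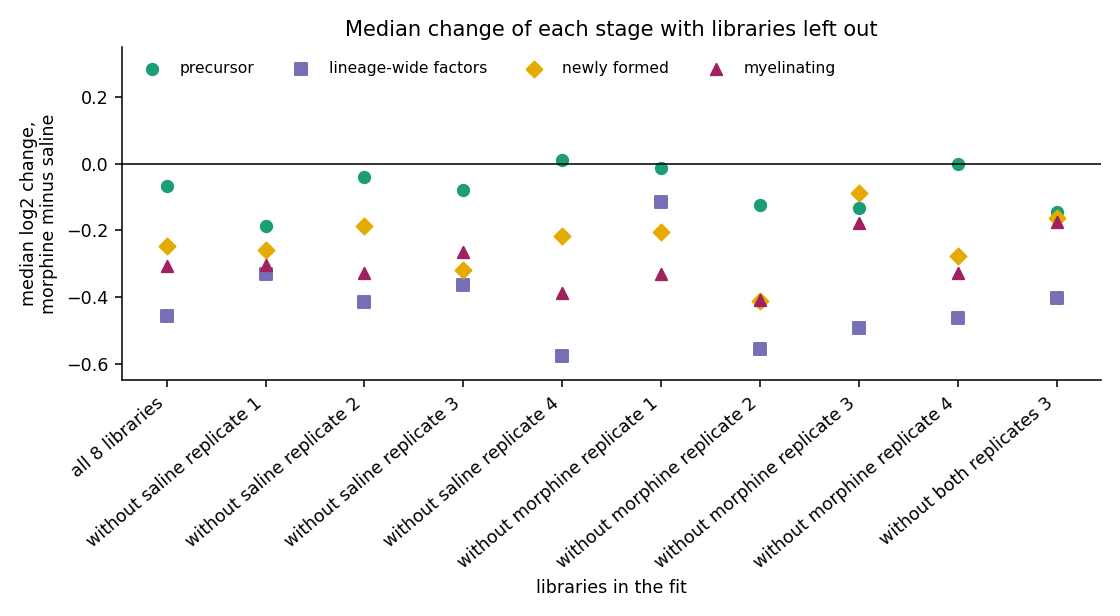
Median log2 change of the genes of each stage, morphine minus saline, with all 8 libraries, with each library left out in turn and with both replicates 3 left out. With 1 library left out the myelinating median stays between −0.41 and −0.18, while that of the lineage-wide factors moves to −0.11 without morphine replicate 1 and the medians of the 3 other stages lie between −0.17 and −0.15 without both replicates 3.

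Other genes of the same stages were listed alongside. Of 39 tested genes of myelinating cells 3 fell and none rose, with 32 below 0 and a median of −0.26. An unadjusted p under 0.05 in limma was reached by 12, 10 of them lower. Over all tested genes 1.48% fell, 1.04% rose, 48% were below 0 and 20.1% reached that p, 10.1% with a lower level. The lists of the next paragraph have the same background. Il33, a nuclear cytokine gene that oligodendrocytes and astrocytes make, had 16.6 to 21.5 FPKM in saline and 5.63 to 9.78 FPKM in morphine (log2 change −1.09 ± 0.17 SE, adjusted p = 0.0207). Plekhb1, a membrane-associated PH domain protein gene, had 272 to 348 FPKM in saline and 155 to 218 FPKM in morphine (−0.69 ± 0.13, adjusted p = 0.0301). Pllp, the gene of the myelin protein plasmolipin, had 61.5 to 82.95 FPKM in saline and 42.7 to 54.96 FPKM in morphine (−0.60 ± 0.13, adjusted p = 0.0429). In these 3 genes no morphine library reached a saline library. Each kept its direction with every library left out, but not its call. Il33 missed the threshold when morphine replicate 3, morphine replicate 4 or saline replicate 2 was left out (adjusted p = 0.0653, 0.0621 and 0.0682), and Plekhb1 passed only without saline replicate 3, saline replicate 4 or morphine replicate 2 (0.0351, 0.0289 and 0.0476). Pllp passed only without saline replicate 4 (0.0240). Ptgds, a prostaglandin synthase gene that meningeal cells also make, was singled out after its values were seen as the most negative of the list, and it did not pass (−2.34 ± 0.61, adjusted p = 0.0709).

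Of 18 other precursor genes 1 fell, with a median of −0.14, 10 below 0 and a range from −0.72 to 1.03. An unadjusted p under 0.05 was reached by 7 of them, 3 lower and 4 higher, where none of the 4 precursor genes above reached it. The gene that fell was Bcan, the gene of the matrix proteoglycan brevican, which astrocytes make too, at 132 to 185 FPKM in saline and 84.0 to 119.95 FPKM in morphine (log2 change −0.67 ± 0.14 SE, adjusted p = 0.0449). Of 12 other genes of the newly formed stage 1 rose and none fell, with a median of −0.30 and 7 at an unadjusted p under 0.05, 6 of them lower. The gene that rose was Mycl, a Myc family gene that neurons also express, at 2.27 to 4.22 FPKM in saline and 5.19 to 8.95 FPKM in morphine (0.86 ± 0.19, adjusted p = 0.0462; 0.0558 with mitochondrial genes removed and 0.0501 with upper quartile scaling). With 1 library left out, Bcan and Mycl each passed only without saline replicate 4 (0.0291 and 0.0322). All 5 calls of these lists were also lost with no filter on low values (adjusted p = 0.0548 for Il33, 0.0646 for Plekhb1, 0.0733 for Pllp, 0.0829 for Bcan and 0.0989 for Mycl). Among 31 tested genes of signals that act on the lineage (growth factors, Notch, BMP, neuregulin and transmitter receptors, and chromatin factors) none passed in limma, with 4 at an unadjusted p under 0.05 and a median of −0.0014. The smallest p belonged to Gria2, an AMPA receptor subunit gene that is mainly neuronal (0.41 ± 0.12, adjusted p = 0.0924), and to Lingo1, a neuronal and oligodendrocyte inhibitor of myelination (0.62 ± 0.22, adjusted p = 0.153), both toward higher levels with morphine. For Lingo1, saline replicate 3 was the lowest library at 21.9 FPKM, the other 7 having 41.9 to 67.4, and without it the change was 0.37.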

How the data were processed

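RNA from the nucleus accumbens of 8 libraries (4 saline, 4 morphine) was copied into full-length cDNA with an oligo-dT primer and template switching, amplified and sequenced, per the labels' protocols, with no mention of molecular identifiers or strand marking. The authors deposited FPKM values for 22337 genes, 1 column per library. The tools named are HISAT2, RSEM, StringTie 1.3.1, Bowtie2 2.2.8 and fastp 0.18.0, with build mm10, per the submitters' processing notes; the sources used here do not state which tool did what, the annotation release or the strandedness. FPKM sums lay between 480004 and 540104 per library, and 12287 to 12655 genes reached 1 FPKM. Whole reads were not recovered: of 11735 low values 20.8% lay within 0.1 of a multiple of the lowest value of their gene, where evenly spread remainders give 20%, a check that rounding and unequal depths blunt. Depth is unknown, and no counting interval is given. No pair of libraries was a copy (at most 1.22% identical values).

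Values were taken as log2(FPKM + 1), which understates changes of genes near 1 FPKM. The 12536 genes with at least 1 FPKM in at least 4 libraries, all 34 lineage genes among them, were fitted with limma 3.58.1 in R 4.3.3 (empirical Bayes with trend, two-sided, Benjamini-Hochberg over all genes, threshold 0.05); the script was tested on simulated data. Symbols and coordinates come from GENCODE M21 (GRCm38), which matched 22232 genes; 1 gene of the other lists had no match. Promoters on chromosome 18 were not printed. The genes, stages and lists were chosen with earlier results of these data known. Genes given with every value are the 4 with the smallest p in each stage and Pdgfra, Olig2, Gpr17, Myrf, Mbp and Mog; of each other list, those that passed, or the 2 with the smallest p. Alternatives were a pseudocount of 0.1, no filter, a filter of 5 FPKM, each library left out, the replicate number as a block, removal of mitochondrial genes and upper quartile scaling.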

Additional observations from a re-analysis of the deposited data

Results flagged for a closer look

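In 76 groups of 4 libraries (68 of single genes and 8 of stage means), the highest or lowest library stood apart from the other 3 in 6 cases; chance gives about 1 in 20. Morphine replicate 3 had 1181 FPKM of Mbp, where the other morphine libraries had 1615 to 1676. Saline replicate 1 had 58.6 FPKM of Mog, where the other saline libraries had 43.8 to 45.3, and 8.56 FPKM of Gjc3, where they had 10.1 to 10.3. For Tcf7l2, saline replicate 4 had 9.55 FPKM against 6.04 to 6.50 in its group, and morphine replicate 2 had 7.27 against 8.88 to 9.10. The mean of the lineage-wide factors was 3.16 in morphine replicate 1 and 3.91 to 4.01 in the other morphine libraries (log2 scale).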

How the results depend on the processing

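With all 8 libraries 316 genes passed, among them 1 of the 34 lineage genes (Bmp4). Leaving out 1 library at a time gave between 0 and 450 genes and 0 or 1 lineage genes (75, 0, 296 and 450 genes without saline replicates 1 to 4 and 102, 70, 0 and 0 without morphine replicates 1 to 4; the fits with 0 had 2005, 1953 and 2136 at an unadjusted p under 0.05 in limma). No filter on low values gave 17 genes and 0 lineage genes (10 lineage genes at an unadjusted p under 0.05 in limma). Leaving out both replicates 3 gave 108 and 0 (6 lineage genes at that p). With a filter of 5 FPKM 216 genes and 0 lineage genes passed. Only 26 lineage genes were tested there, 8 of them at an unadjusted p under 0.05, and Bmp4 was not tested. With the replicate number as a block, 5 genes and 0 lineage genes passed (2352 and 9 at an unadjusted p under 0.05), and the block ended the calls of Il33 (adjusted p = 0.0614), Plekhb1 (0.0881), Pllp (0.0968), Bcan (0.0737) and Mycl (0.110). Deviations of same-numbered libraries correlated between −0.20 and 0.05. No saline library correlated best with the morphine library of its own number, and of the morphine libraries only replicate 2 did with its saline counterpart. The numbers were not taken as pairs. For Bmp4 the change was −0.83 with an adjusted p of 0.0971 without a filter and 0.110 with the block, and −0.76 without both replicates 3 (0.154). The newly formed median was 0.10 with the filter of 5 FPKM, which removes Bmp4 and Myrf and leaves only Gpr17 and Tcf7l2 of that stage. With 1 library left out this median ranged from −0.41 to −0.087. The lineage factor median went to −0.11 without morphine replicate 1, the myelinating median to −0.18 without morphine replicate 3, and the precursor median turned to 0.013 without saline replicate 4. Of 17 genes given in full, 13 kept their sign in every setting. Of the other 17, Mobp, Ermn and Nkx2-2 changed sign with 1 library left out (to 0.064, 0.036 and −0.068). Without both replicates 3 only 14 of the 20 myelinating genes and 23 of all 34 were below 0. Further genes of the other 17 thus changed sign in that setting. The exceptions among the genes given in full, all near 0, ranged with 1 library left out from −0.13 to 0.15 for Cspg4, −0.13 to 0.066 for Pdgfra, −0.13 to 0.029 for Olig1 and −0.12 to 0.036 for Gpr17. Cspg4 was also −0.024 without mitochondrial genes and −0.026 with upper quartile scaling, and without both replicates 3 Olig1 was 0.019 and Gpr17 0.021. The cause was not tested. The 4 libraries a group and the unknown depth limit the precision of all these values.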
